A study of Capra hircus with 9 samples.

Results

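The genes described here are 10 genes of fat cells and lipid storage in the submandibular gland of female Lubo goats: ADIPOQ, LEP, PLIN1, CIDEC, PLIN4, LPL, CD36, FABP4, PPARG and SCD. They were chosen by name, for what they encode, with earlier results of these data known. All 10 were found in the table, in which 34 of 52739 transcripts belong to them, and summing transcripts gave 21688 genes in all. Glands of 9 goats were compared, 3 of 1 month (group A), 3 of 12 months (group B) and 3 of 24 months (group C), with 1 RNA-seq library from each goat. The study asked how gene expression in this salivary gland differs between developmental stages. The goats of every group had been kept under the same conditions and were fasted before slaughter, so each level is that of a fasted animal. Because whole glands were sampled, connective tissue and any fat within or around the lobules could enter a library.

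A fat cell stores triglyceride in 1 large droplet and rebuilds that triglyceride from fatty acids that it takes from the blood. Lipoprotein lipase frees the fatty acids in capillaries, CD36 helps them across the membrane, FABP4 carries them in the cytosol, and perilipins and CIDEC coat and enlarge the droplet. PPARG is the transcription factor that drives fat cell differentiation, and adiponectin (ADIPOQ) and leptin (LEP) are hormones that fat cells secrete. Adipose tissue commonly lies between the lobules of salivary glands. Several of these genes are not limited to fat cells: macrophages also use CD36, LPL, FABP4 and PPARG, capillary endothelium also uses CD36 and FABP4, striated muscle uses LPL, CD36 and PLIN4, and SCD serves many cells that make lipid.

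Levels are given as CPM, the expected counts of a gene relative to the size of its library, with TMM library sizes over all 9 libraries. They were not divided by transcript length, so the level of one gene cannot be set against the level of another, and each gene or pair of genes was compared between libraries only. Total expected counts per library ranged from 1.15e+07 to 2.49e+07, at which 3 counts correspond to 0.145 to 0.190 CPM. A difference below that level was not detectable. In whole-tissue RNA, fewer fat cells and less RNA per fat cell cannot be told apart.

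One library stood apart from its group in marker lists that hold none of the 10 genes. Those lists, like the 10 genes, were chosen with earlier results of these data known. In 1-month replicate 2 the 8 markers of salivary acinar and duct cells summed to 494 CPM. The other 1-month libraries had 38420 and 25600 CPM, and the 6 older libraries had 121700 to 214800 CPM. The same library had the highest sum of 7 thymus and thymocyte markers, 5126 CPM against 2037 and 877 CPM in the other 1-month libraries and at most 1.45 CPM in any older library. It went against its label as a submandibular gland, and the quasi-likelihood calls of the 10 genes and of the gene lists against the 1-month group are therefore given with and without it. Macrophage markers (8 genes) summed to 1933 CPM in 1-month replicate 3, to 524 and 614 CPM in the other 1-month libraries and to 176 to 311 CPM in the older ones. Skeletal muscle markers (7 genes) summed to 48.5 CPM in 12-month replicate 2 and to 31.1 CPM in 1-month replicate 1, and to between 3.14 and 9.31 CPM elsewhere.

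**Figure D1:**
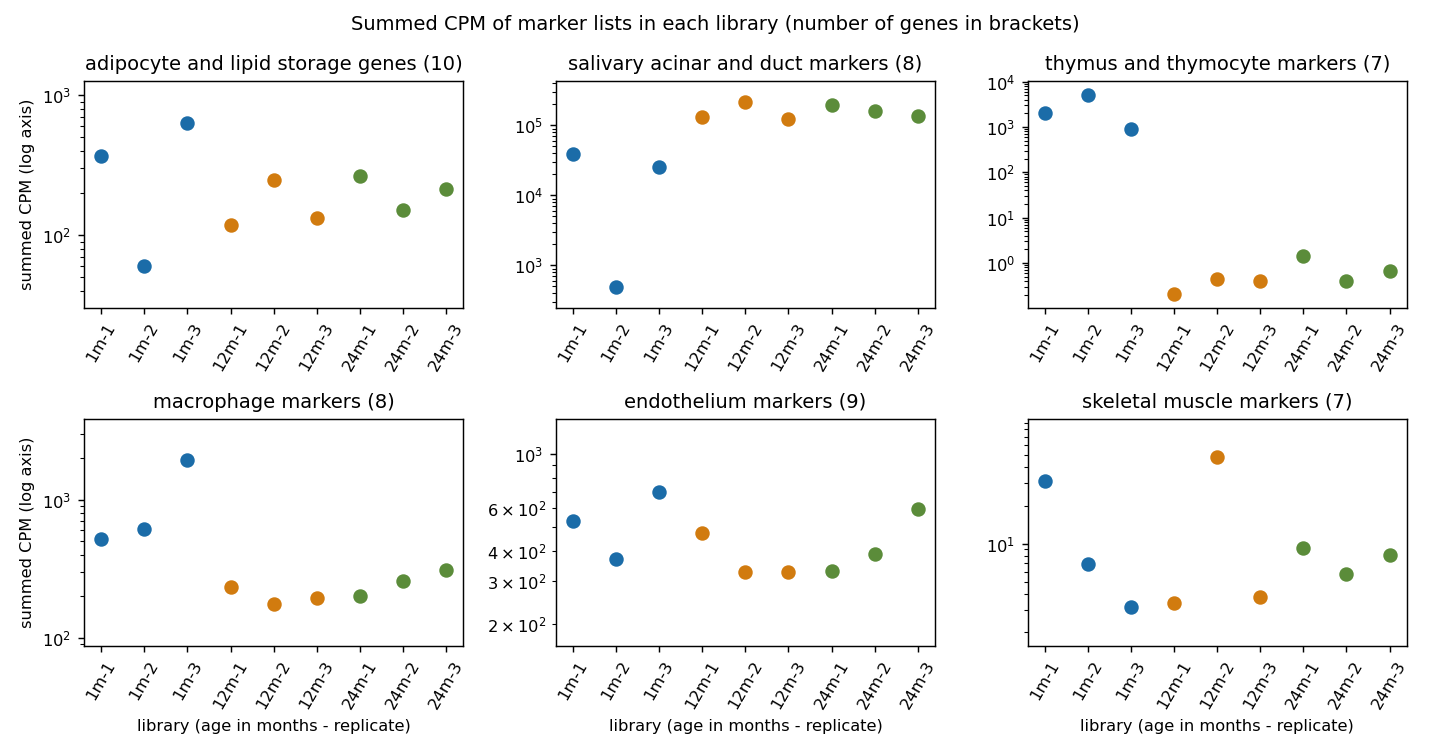
Summed CPM (log axis) of the 10 adipocyte and lipid storage genes and of 5 marker lists in each of the 9 libraries, with 1 point per library coloured by age and the number of genes of each list in brackets. The point of 1-month replicate 2 is the lowest for the 10 genes (60.4 CPM) and for the salivary markers (494 CPM) and the highest for the thymus markers (5126 CPM).

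The fat cell hormone gene ADIPOQ was most abundant in 2 of the 1-month glands and least abundant in the other. It measured 86.3, 2.53 and 177 CPM in 1-month replicates 1, 2 and 3, 12.1, 64.1 and 10.8 CPM at 12 months, and 28.6, 3.28 and 26.0 CPM at 24 months. The highest library was 69.8 times the lowest, and both belonged to the 1-month group, so the groups overlapped. The group means ± SD were 88.6 ± 87.2, 29.0 ± 30.4 and 19.3 ± 13.9 CPM (n = 3 each). The log2 fold change of 12 months against 1 month was -1.51 (SE 1.29, 95% interval -4.57 to 1.55, adjusted p = 0.411 by edgeR's quasi-likelihood test), and that of 24 months against 1 month was -2.07 (SE 1.21, adjusted p = 0.262). Neither difference passed the test against the spread between goats of the same age.

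Leptin transcripts were near the limit of detection. LEP measured 0.739, 0.105 and 1.64 CPM at 1 month, 0.165, 0.605 and 0.0439 CPM at 12 months, and 0.174, 0 and 0.155 CPM at 24 months. The groups summed to 39.7, 14.8 and 6.20 expected counts. Only 1-month replicates 1 and 3 and 12-month replicate 2 lay clearly above 3 counts, and these are also the highest libraries for ADIPOQ. LEP did not pass the filter on low counts in any comparison of all libraries, and it is the only one of the 10 genes that was not tested there.

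The droplet coat gene PLIN1, whose protein gates lipolysis in fat cells, followed ADIPOQ library by library. Its levels were 26.2, 0.528 and 68.7 CPM at 1 month, 4.21, 23.1 and 3.80 CPM at 12 months, and 12.3, 2.09 and 13.0 CPM at 24 months. As for ADIPOQ, 1-month replicate 3 was the highest, 1-month replicate 2 the lowest and 12-month replicate 2 the highest of its group. The fitted log2 fold changes were -1.52 (SE 1.38) at 12 months and -1.67 (SE 1.24) at 24 months against 1 month, with adjusted p of 0.441 and 0.377.

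CIDEC encodes the protein that fuses droplets into a large one. It measured 10.7, 0.105 and 16.2 CPM at 1 month, 0.866, 5.28 and 0.918 CPM at 12 months, and 2.50, 0.452 and 3.46 CPM at 24 months. The value of 1-month replicate 2 was below 3 counts, so a gene that reached 16.2 CPM in one gland of this age was not detectable above that level in another. Its log2 fold changes against 1 month were -1.84 (SE 1.39) at 12 months and -1.95 (SE 1.28) at 24 months, with adjusted p of 0.355 and 0.316.

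PLIN4, a perilipin of nascent droplets, did not share this pattern in the older goats. Its levels were 41.8, 0.598 and 69.4 CPM at 1 month, 33.5, 47.6 and 40.5 CPM at 12 months, and 44.8, 54.2 and 105 CPM at 24 months. Apart from 1-month replicate 2, all libraries lay between 33.5 and 105 CPM, and 24-month replicate 2, which was low for ADIPOQ, PLIN1 and CIDEC, was not low for PLIN4. The log2 fold changes against 1 month were 0.22 (SE 1.16) at 12 months and 1.02 (SE 1.12) at 24 months, with adjusted p of 0.903 and 0.558. At 12 months the sign depended on 1-month replicate 2 and on the scaling (-0.45 without that library, -0.41 with library totals only).

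**Figure D2:**
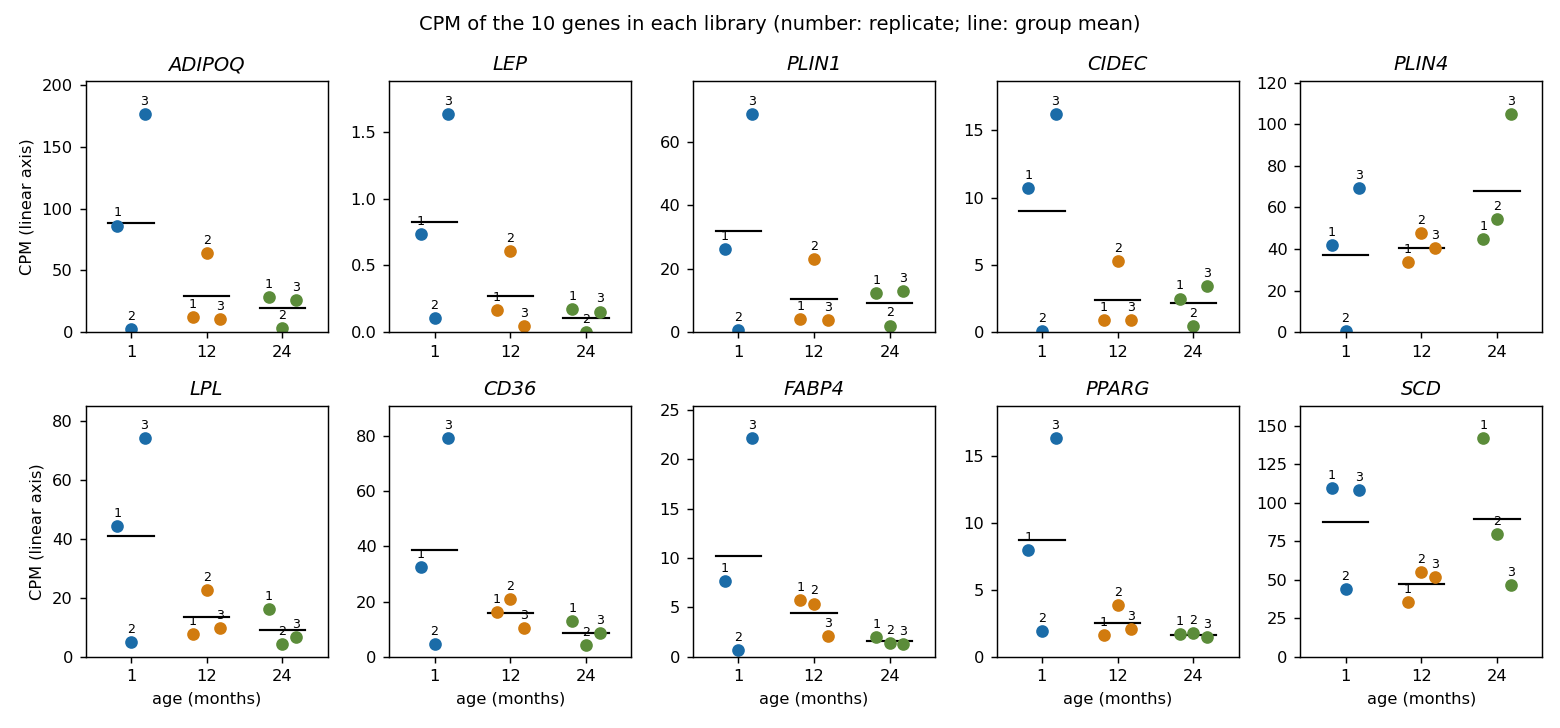
CPM (linear axis, a separate scale for each gene) of the 10 genes in each library at 1, 12 and 24 months, with the replicate number beside each point and a line at the group mean of 3 libraries. For ADIPOQ, PLIN1 and CIDEC, replicates 1 and 3 of the 1-month group lie above all other libraries and replicate 2 of that group lies below all others, whereas PLIN4 and SCD show no such separation of ages.

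Of the genes that bring fatty acids into the cell, LPL measured 44.2, 4.99 and 74.0 CPM at 1 month, 7.88, 22.7 and 9.75 CPM at 12 months, and 16.1, 4.19 and 6.76 CPM at 24 months. Replicates 1 and 3 of the 1-month group were above every older library, and replicate 2 lay within the older range. The log2 fold change was -1.52 (SE 0.877, adjusted p = 0.237) at 12 months and -2.07 (SE 0.872, 95% interval -4.06 to -0.07, adjusted p = 0.134) at 24 months.

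CD36 measured 32.5, 4.75 and 79.0 CPM at 1 month, 16.2, 20.9 and 10.3 CPM at 12 months, and 13.0, 4.35 and 8.60 CPM at 24 months. Its 24-month mean of 8.65 ± 4.32 CPM was below the 12-month mean of 15.8 ± 5.28 CPM, with overlapping libraries (adjusted p = 0.429). Against 1 month the log2 fold changes were -1.21 (SE 0.846, adjusted p = 0.322) and -2.03 (SE 0.861, adjusted p = 0.134).

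FABP4, the cytosolic fatty acid carrier of fat cells, measured 7.69, 0.668 and 22.1 CPM at 1 month, 5.78, 5.39 and 2.06 CPM at 12 months, and 1.98, 1.36 and 1.34 CPM at 24 months. Every 24-month library was below every 12-month library, although the lowest 12-month value (2.06 CPM) and the highest 24-month value (1.98 CPM) nearly met. The log2 fold change of 24 against 12 months was -1.45 (SE 0.497, 95% interval -2.57 to -0.34), which did not pass the adjusted threshold (adjusted p = 0.429). Against 1 month it was -1.12 (SE 1.03, adjusted p = 0.446) at 12 months and -2.56 (SE 0.995, adjusted p = 0.109) at 24 months. The table lists this gene as LOC100861279, and it was matched through the RefSeq synonym A-FABP.

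PPARG was the gene nearest to a call. It measured 7.95, 1.93 and 16.3 CPM at 1 month, 1.61, 3.85 and 2.06 CPM at 12 months, and 1.69, 1.75 and 1.50 CPM at 24 months. All 24-month libraries were below all 1-month libraries, including 1-month replicate 2, from which they differed by little. The exact two-sided permutation test of the group means gave p = 0.1, the smallest that 3 against 3 libraries allow. The fitted log2 fold change of 24 months against 1 month was -2.26 (SE 0.735, 95% interval -3.94 to -0.58, adjusted p = 0.0672), and that of 12 months was -1.71 (SE 0.760, adjusted p = 0.146). Other tools called the 24-month difference: its adjusted p was 0.0112 with DESeq2's Wald test, 0.0212 with edgeR's exact test and 0.0297 with all 9 libraries in one quasi-likelihood fit. The 24-month PPARG mean was 1.65 ± 0.133 CPM (SD, n = 3), while ADIPOQ in the same libraries had a mean of 19.3 ± 13.9 CPM.

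SCD, the desaturase that makes monounsaturated fatty acids, was expressed in every library at 35.6 CPM or more. It measured 110, 44.2 and 108 CPM at 1 month, 35.6, 54.8 and 52.0 CPM at 12 months, and 142, 79.6 and 46.6 CPM at 24 months. Its highest level was 3.98 times its lowest, the narrowest range of the 10 genes, and its highest library was a 24-month one. The log2 fold change was -0.80 (SE 0.392, adjusted p = 0.176) at 12 months and 0.15 (SE 0.515, adjusted p = 0.864) at 24 months against 1 month. From 12 to 24 months it was 0.95 (SE 0.384, 95% interval 0.09 to 1.81, adjusted p = 0.429). Against 1 month its sign at 24 months changed with the scaling, to -0.63 with library totals only.

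Counted over the 10 genes, none was called between any pair of ages when all libraries were used. A gene was called where edgeR's quasi-likelihood test gave an adjusted p under 0.05 and the fitted log2 fold change was beyond 2 in either direction. Between 12 months and 1 month, 0 of 9 tested were called, beside 11.7% of all 14898 genes tested. Between 24 months and 1 month, 0 of 9 were called, beside 13.4% of 14968 genes, and between 24 and 12 months 0 of 9, beside 0.0% of 14297 genes. The background itself rested on single libraries: without 12-month replicate 1 no gene was called at 12 months, and without 24-month replicate 3 only 311 were called at 24 months. At an unadjusted p under 0.05 the members numbered 0, 4 (CD36, FABP4, LPL and PPARG) and 3 (FABP4, PLIN4 and SCD), beside 37.8%, 34.3% and 10.9% of all genes. DESeq2's Wald test called 4 of the genes lower at 24 months than at 1 month (FABP4, LPL, CD36 and PPARG), beside 10.9% of 17051 genes, and edgeR's exact test called 2 (FABP4 and PPARG), beside 11.1% of 14968.

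As a description, most fitted values were negative. At 12 months 8 of 9 genes, all but PLIN4, had a negative log2 fold change against 1 month, as had 50.7% of all genes, and their median was -1.51 beside -0.02 over all genes tested, with all libraries. At 24 months 7 of 9, all but PLIN4 and SCD, were negative (50.3% of all genes), with a median of -2.03 beside -0.01. From 12 to 24 months 7 of 9 were negative (47.7% of all genes), with a median of -0.54 beside 0.04. The first of these comparisons shares its 1-month libraries with the next, so they are not independent of each other. The count and median from 12 to 24 months rested on 12-month replicate 2. Without that library ADIPOQ (0.78), PLIN1 (1.22), CIDEC (1.27) and LPL (0.069) were positive, and CD36, FABP4 and PPARG stayed negative. None of the 10 genes had 12-month libraries all below the 1-month libraries (26.9% of genes did), 1 of 10 (PPARG) had 24-month libraries all below (23.5%), and 1 of 10 (FABP4) had 24-month libraries all below those of 12 months (7.58%).

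Without 1-month replicate 2 more of the genes were called, all of them lower in the older goats. With the 2 remaining 1-month libraries, 3 of 10 genes were called lower at 12 months than at 1 month, beside 10.4% of 15251 genes. These were CIDEC (log2 fold change -2.51, SE 0.801, adjusted p = 0.0470), LPL (-2.14, SE 0.481, adjusted p = 0.0153) and PPARG (-2.27, SE 0.484, adjusted p = 0.0127). SCD at -1.20 (SE 0.201, adjusted p = 0.00589) and CD36 at -1.82 (SE 0.434, adjusted p = 0.0186) passed the adjusted p but not the fold threshold. ADIPOQ (-2.18, adjusted p = 0.0753) and PLIN1 (-2.19, adjusted p = 0.0837) passed the fold threshold but not the adjusted p. LEP, which passed the filter here and not with all libraries, was not called.

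At 24 months 7 of the 9 genes that were also tested with all libraries were called lower without that library, beside 9.74% of 15383 genes. FABP4 differed most among them (-3.15, SE 0.533, adjusted p = 0.00418). PPARG followed with -2.77 (SE 0.479, adjusted p = 0.00454), ADIPOQ with -2.68 (SE 0.720, adjusted p = 0.0248) and LPL with -2.61 (SE 0.535, adjusted p = 0.00885). CD36 was at -2.59 (SE 0.514, adjusted p = 0.00789), CIDEC at -2.57 (SE 0.691, adjusted p = 0.0248) and PLIN1 at -2.28 (SE 0.681, adjusted p = 0.0352). PLIN4 (0.39, SE 0.427, 95% interval -0.57 to 1.36) and SCD (-0.18, SE 0.444, 95% interval -1.19 to 0.82) were not called. LEP passed the filter only through the 1-month libraries, having 3.21, 0 and 3.00 counts at 24 months, so its fitted value of -3.34 (SE 1.09), which also met the thresholds, is a description and supports nothing.

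The size of the differences rested on 1-month replicate 3 as well. Leaving that library out in place of replicate 2, none of the 10 genes was called in either comparison, and LEP was not tested. At 12 months 1458 of all 15162 genes tested were called in the same fit. At 12 months CIDEC was then at -1.19, PPARG at -0.98, LPL at -0.87, ADIPOQ at -0.61, PLIN1 at -0.36, CD36 at -0.24 and FABP4 at 0.071. At 24 months ADIPOQ was at -1.13, FABP4 at -1.35, LPL at -1.37, CD36 at -1.03, CIDEC at -1.26, PPARG at -1.50 and PLIN1 at -0.48.

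The same contrast can be read from the libraries themselves. Mean ADIPOQ was 132 CPM in the 2 remaining 1-month libraries, 4.54 times the 12-month mean and 6.82 times the 24-month mean. FABP4 fell from 14.9 CPM in those libraries to 1.56 ± 0.363 CPM at 24 months, a ratio of 9.55. Without 1-month replicate 2, the 12-month libraries of 9 of 10 genes, all but PLIN4, were below both 1-month libraries, as were those of 34.6% of all genes. The 24-month libraries of 8 of 10 were, beside 32.2%. Both counts include LEP, which did not pass the filter with all libraries and lay near the limit of detection, so its place in them supports nothing. The smallest exact permutation p for 2 against 3 libraries is 0.1, so these counts carry no test of a single gene. The 2 remaining libraries also had macrophage sums of 524 and 1933 CPM and thymus sums of 2037 and 877 CPM, above those of every older library, and the part of these in the result was not tested. Among the 3 libraries of this age the thymus sum ran opposite to the 10 genes, with its highest value in replicate 2, where the 10 genes summed to 60.4 CPM, and its lowest in replicate 3, where they summed to 633 CPM.

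**Figure D3:**
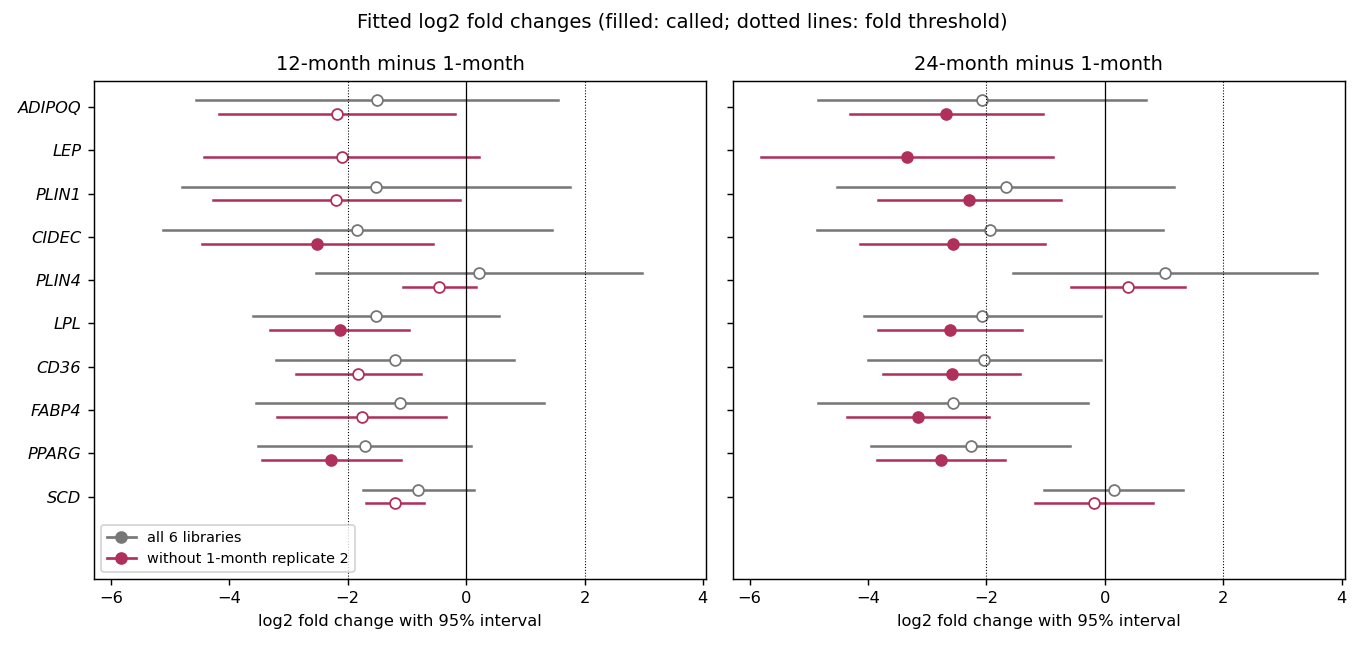
Fitted log2 fold changes of the 10 genes with 95% intervals, 12 months minus 1 month (left) and 24 months minus 1 month (right), with all 6 libraries in grey and without 1-month replicate 2 in red. Filled points were called and dotted lines mark the fold threshold of 2, so that 3 genes on the left and 8 on the right are filled, all in red. LEP, one of the 8, has no grey point because it did not pass the filter with all libraries, and its red point is a description only.

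The spread between goats of 1 age was itself ordered. Of the 10 genes, 8 were highest in 1-month replicate 3, all but PLIN4 and SCD, and 9 had 1-month replicate 3 among their 2 highest libraries. Likewise 9 had 1-month replicate 1 there. The lowest library was 1-month replicate 2 for 5 genes and 24-month replicate 2 for 3. Within the 12-month group, replicate 2 was the highest for all genes but FABP4, and it was also the library with the highest skeletal muscle sum (48.5 CPM), whose part in this was not tested. In 1-month replicate 3 the muscle sum was 3.14 CPM, the lowest of all, while ADIPOQ was at its highest.

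Over the 9 libraries, Pearson's r of log2(CPM + 1) with ADIPOQ was 0.988 for PLIN1, 0.976 for CIDEC, 0.933 for LPL and 0.924 for CD36. It was 0.876 for LEP, 0.828 for FABP4 and 0.789 for PPARG, and it was lowest for PLIN4 (0.558) and SCD (0.499). Without 1-month replicate 2 the PLIN4 value was 0.212. Over the 6 libraries of the older goats alone it remained 0.974 for PLIN1 and 0.951 for CIDEC and was 0.861 for LPL, 0.790 for CD36, 0.560 for PPARG and 0.419 for FABP4. The values for PLIN4 and SCD in these libraries were 0.153 and 0.013. These are descriptions over libraries of 3 ages that share depth and tissue makeup within each library, and no test was made of them. The CIDEC values rest in part on a new transcript found in 12-month replicate 2 only, given below.

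Ratios to ADIPOQ showed the same grouping. They were read only as a change of one ratio between libraries, in which transcript length has no part. The ratio of PLIN1 to ADIPOQ varied 3.06-fold over the 9 libraries, although each of these genes varied 69.8-fold or more, and that of CIDEC varied 3.31-fold. The ratio varied 5.76-fold for CD36, 7.59-fold for LPL, 9.23-fold for FABP4 and 13.3-fold for PPARG, and it varied 39.6-fold for SCD and 70.0-fold for PLIN4. Leaving out 1-month replicate 2, where CIDEC had 2.02 counts, the ratio varied 1.93-fold for CIDEC, 4.91-fold for LPL and 42.1-fold for PLIN4. The narrow range for CIDEC rests in part on a new transcript found in 12-month replicate 2 only. It held 3.78 of the 5.28 CPM of CIDEC there, and a RefSeq transcript held 1.50 CPM. The CIDEC ratio and correlation without that transcript were not computed. For LPL, PPARG and SCD the 2 highest ratios were those of 1-month replicate 2 and 24-month replicate 2, the libraries with the least ADIPOQ.

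**Figure D4:**
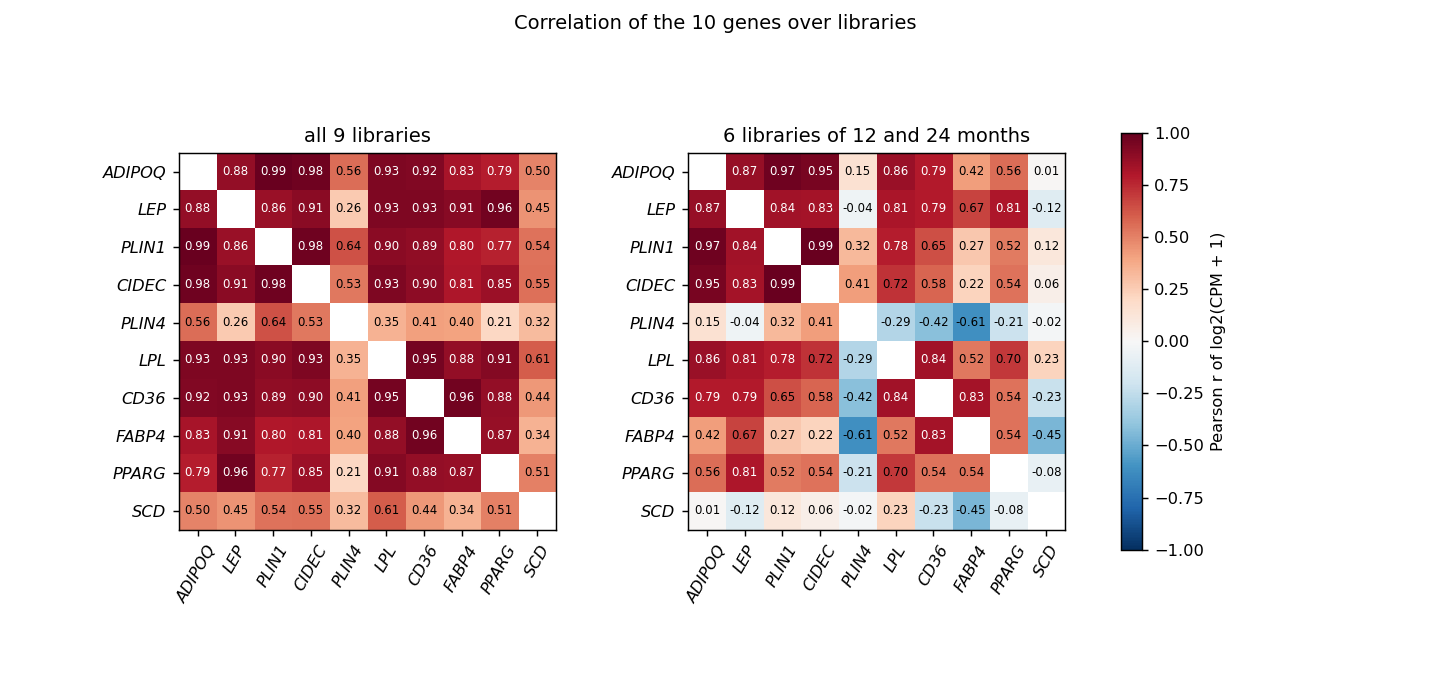
Pearson's r of log2(CPM + 1) for each pair of the 10 genes, over all 9 libraries (left) and over the 6 libraries of 12 and 24 months (right), with colour from -1 to 1 and the value in each cell. ADIPOQ, PLIN1 and CIDEC stay above 0.95 with each other in both panels, whereas PLIN4 and SCD reach at most 0.41 with them in the older goats.

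Among 14178 genes with a mean of at least 1 CPM, the 5 whose log2(CPM + 1) over the 9 libraries was most like that of ADIPOQ were PLIN1, CIDEC, HIF3A (r = 0.952), PCDH9 (0.948) and TRARG1 (0.947). TRARG1, which encodes a regulator of glucose transporter traffic in fat cells, ranged from 0 to 13.9 CPM. The 5 nearest to LPL were LOC102170588 (0.970), SNCG (0.967), GPR34 (0.965), MOSPD2 (0.965) and L1RE1 (0.956). Those nearest to SCD were LOC102168343 (0.858), MED6 (0.825), LOC102173987 (0.822), CXCL10 (0.816) and GBP1 (0.815), none of them a gene of lipid synthesis among the named ones. These genes were ranked on 9 points and picked as the highest of many.

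The transcripts of the 10 genes were also tested singly. Of their 34 transcripts 25 were RefSeq and 9 newly assembled, 1 had no count and 3 were found in 1 library only. None was called at 12 months (0 of 20 tested, beside 2.74% of 30272 transcripts), at 24 months (0 of 21, beside 1.50% of 30205) or between 24 and 12 months (0 of 18, beside 0.0% of 28297). Against 1 month 18 of the 20 and 17 of the 21 had negative fitted changes. The share over all transcripts was not computed, and transcripts of the same gene are not independent, so these counts are a description. PPARG stood out by where its reads were assigned: 98.5% of its expected counts were on new transcripts and the RefSeq transcript was found in 1 library only. ADIPOQ and LPL were each carried by 1 transcript, with 93.4% and 94.1% of the counts, and PLIN4 was split evenly over 2 (51.4% and 48.6%). CD36 had 10 transcripts, of which the leading one held 58.4%. Some of its new transcripts are described in the table as like platelet glycoprotein 4, and a neighbouring copy (LOC108633303) is counted apart, so the division of reads between these copies is uncertain.

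Other fat cell genes were read from a list of 12 that excluded the 10. At 24 months against 1 month 1 was called lower and 1 higher of 10 tested, with a median log2 fold change of -1.24 beside -0.01 over all genes. At 12 months 1 was called lower and 0 higher, with a median of -0.60 beside -0.02. Without 1-month replicate 2, 3 of 11 (AQP7, LGALS12 and PCK1) were called lower in both comparisons, and 1 higher at 24 months. LGALS12 and PCK1 passed the filter only through the 1-month libraries, where they are high, so these calls are descriptions and support nothing. Over all genes 9.17% were called lower and 4.25% higher at 24 months, and 9.54% lower and 2.17% higher at 12 months, and none of the lists below had a call between 24 and 12 months. LGALS12, a galectin of fat cell droplets, measured 1.16, 4.04 and 1.99 CPM at 1 month and at most 0.206 CPM in any older library. It was highest in 1-month replicate 2, where ADIPOQ was lowest. SLC2A4, the insulin-responsive glucose transporter of fat and muscle, rose from 2.85, 0.317 and 2.75 CPM to 8.73, 18.8 and 18.5 CPM at 24 months (log2 fold change 3.13, adjusted p = 0.0294, and 2.58 without 1-month replicate 2). The list did not move one way. AQP7, a glycerol channel, measured 4.32, 0.633 and 12.2 CPM at 1 month and at most 2.25 CPM later. It was not called with all libraries and was called lower without 1-month replicate 2 (-2.88, adjusted p = 0.0275, and -2.73, adjusted p = 0.0263). GPD1, which makes the glycerol backbone of triglyceride, had positive log2 fold changes that passed the adjusted p (0.0354 and 0.0306) but not the fold threshold, and ADRB3, a receptor that starts lipolysis, was at 2.22 at 24 months (adjusted p = 0.167). AQP7, PCK1, GPD1 and ADRB3 were chosen after their values were seen. One gene of the list was at 0 throughout.

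None of the genes around the droplet or of fatty acid traffic was called. Of the droplet and lipolysis list 0 of 10 tested were called at 12 months and 0 of 11 at 24 months, with medians of -0.22 and -0.14. Some passed the adjusted p but not the fold threshold: 0 lower and 1 higher at 12 months, and 1 lower and 1 higher at 24 months. Without 1-month replicate 2 these were 0 and 4, and 1 and 3. The lower one, LIPE (-1.84 at 24 months, named after its values were seen), is a lipase. It was highest in 1-month replicate 2 (31.3 CPM), where ADIPOQ was lowest. PNPLA2, the first lipase of triglyceride breakdown, measured 26.0 to 106 CPM, and BSCL2, the seipin of droplet formation, 23.3 to 73.0 CPM. Of the fatty acid capture and transport list 0 of 11 and 0 of 12 were called. Neither list gave a call without 1-month replicate 2. In the capture and transport list 1 lower and 3 higher genes then passed the adjusted p alone at 12 months, and 1 lower and 1 higher at 24 months. ACSL1, which activates fatty acids, measured 107 to 213 CPM, with overlapping ages. DBI, which binds acyl-CoA, measured 29.0 to 113 CPM. Its 12-month libraries were all above its 1-month libraries, and its 24-month libraries overlapped both.

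The synthesis genes changed in both directions. Of the fatty acid list 3 were called lower and 1 higher of 13 tested at 12 months, and 3 lower and 2 higher at 24 months. These counts were 4 lower and 2 higher of 14, and 4 lower and 3 higher, without 1-month replicate 2. The lower gene added there, THRSP (named after its values were seen), was at most 0.204 CPM in any older library and passed the filter only through the 1-month libraries, so it supports nothing. The 3 called lower with all libraries make polyunsaturated fatty acids: ELOVL5 at 24 months had a log2 fold change of -2.81, FADS1 of -3.18 and FADS2 of -3.04 (adjusted p of all under the threshold in both comparisons), and they were called without 1-month replicate 2 too, with 16.6 CPM or more in every 1-month library and at most 8.75 CPM in every older one. INSIG1, which restrains sterol-driven lipid synthesis, rose to 230, 127 and 63.2 CPM at 24 months from 26.4, 7.63 and 24.8 CPM at 1 month (log2 fold change 2.96, and 2.56 without 1-month replicate 2). Of 9 triglyceride synthesis genes 1 was called lower at 12 months, and 1 lower and 1 higher at 24 months, and the counts were the same without 1-month replicate 2. DGAT2, which makes the final ester bond, had log2 fold changes of -2.44 (adjusted p = 0.0464) and -3.03, and of -2.94 and -3.50 without that library. AGPAT2, an earlier step of the same pathway, rose by 2.36 on the log2 scale at 24 months, from 34.9, 19.5 and 31.6 CPM to 77.9, 135 and 190 CPM (2.12 without 1-month replicate 2). Unlike ADIPOQ, the 3 polyunsaturated fatty acid genes were not low in 1-month replicate 2, where they measured 33.5, 36.6 and 37.1 CPM.

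**Figure D5:**
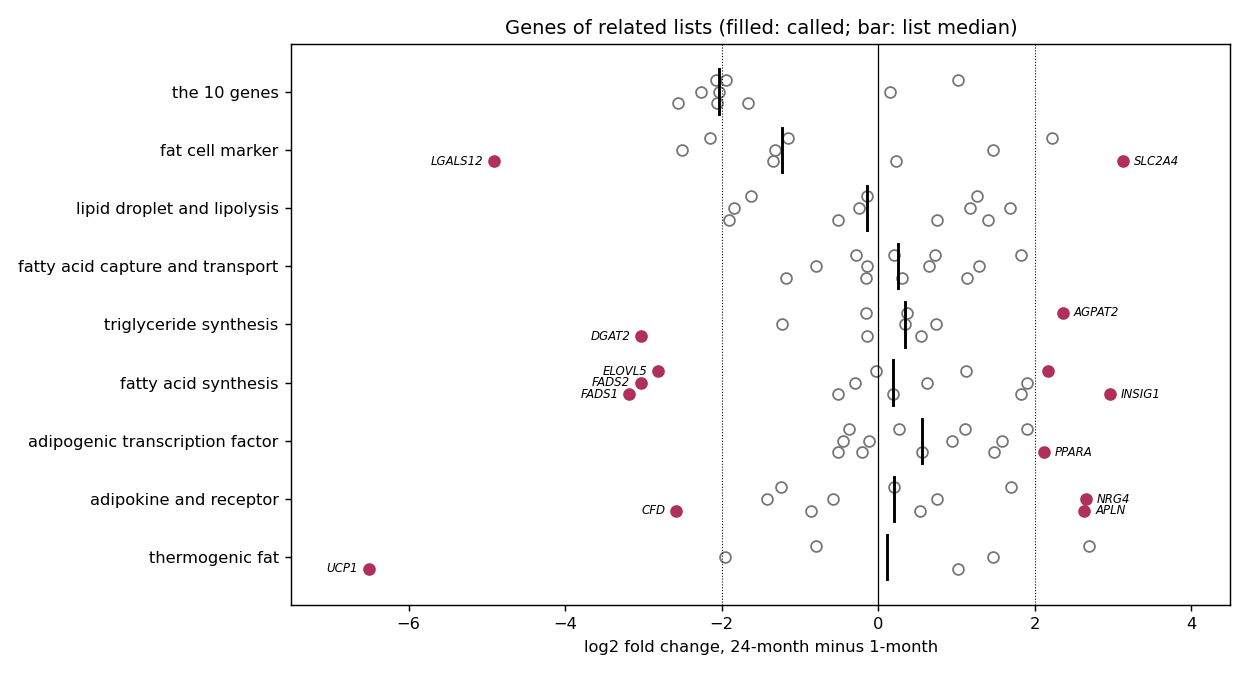
Fitted log2 fold changes of 24 months minus 1 month for the 10 genes and for 8 lists of related genes, with 1 point per tested gene, filled where called, and a bar at the list median. The 10 genes have the lowest median (-2.03) without a filled point, and the fatty acid synthesis list has filled points on both sides of 0.

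Transcription factors and secreted factors gave a few calls in the 24-month comparison. Of 13 adipogenic transcription factors 0 were called at 12 months and 1 at 24 months, PPARA, a factor of fatty acid oxidation, which rose from 56.3, 9.50 and 43.6 CPM to 162, 143 and 128 CPM (log2 fold change 2.12). It was not called without 1-month replicate 2 (1.63, under the fold threshold). Among adipokines and receptors 1 was called lower and 1 higher of 10 tested at 12 months, and 1 lower and 2 higher of 11 at 24 months. The same counts without 1-month replicate 2 were 1 lower and 0 higher, and 1 lower and 1 higher. CFD, the complement factor adipsin, fell from 67.1, 115 and 243 CPM at 1 month to at most 25.6 CPM later, with log2 fold changes of -3.19 and -2.59 (-3.39 and -2.74 without 1-month replicate 2). APLN, which encodes apelin, had log2 fold changes of 2.16 and 2.63, the first of them 1.73 and not called without 1-month replicate 2. NRG4, one of the genes counted as higher at 24 months, measured at most 0.222 CPM at 1 month and 1.19 CPM in any library. It passed the filter only through the 24-month libraries, so its call is a description, and it was not called without 1-month replicate 2. Among thermogenic genes 1 of 6 tested was called lower in each comparison with 1 month, UCP1, the uncoupling protein of brown fat, and without 1-month replicate 2 PPARGC1A (2.53 at 12 months, named after its values were seen) was called higher in both. UCP1 measured 2.07, 3.66 and 1.14 CPM at 1 month and 0 in every older library but 24-month replicate 2 (0.0566 CPM, below 3 counts). It passed the filter only through the 1-month libraries, so its call is a description, and like LGALS12 it was highest in the 1-month library that had the least ADIPOQ.

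Of the other cell types that use these genes, only macrophages had markers that were called, in either comparison with 1 month. Of 8 macrophage markers 5 were called lower at 12 months and 4 at 24 months, and none higher, and without 1-month replicate 2 there were 6 at each age. CD68, a lysosomal protein of macrophages, had log2 fold changes of -2.95 and -2.89, and MRC1, the mannose receptor, of -2.73 and -3.30. C1QB and C1QC, subunits of complement C1q, were at -2.82 and -3.04 at 12 months and at -2.06 and -2.32 at 24 months. C1QB just missed the adjusted p at 24 months with all libraries, and all 4 were called in both comparisons without 1-month replicate 2. CD36, LPL, FABP4 and PPARG were highest in 1-month replicate 3 and lowest of their group in replicate 2. The macrophage sum was highest in replicate 3 too (1933 CPM), but it was higher in replicate 2 (614 CPM) than in replicate 1 (524 CPM). The part of macrophages in the levels of these 4 genes was not tested.

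Endothelial markers (9 genes) gave no call in either comparison, with or without 1-month replicate 2, and summed to 326 to 701 CPM with overlapping ages. Their fitted changes were mostly negative, 7 of 9 at 12 months (median -0.74) and 5 of 9 at 24 months (median -0.69). Without 1-month replicate 2, 8 of 9 were negative at each age, and 3 and 1 of them passed the adjusted p. The part of endothelium in the levels of CD36 and FABP4 was not tested. PECAM1 measured 113 to 158 CPM at 1 month and 53.8 to 107 CPM later, and VWF 92.9 to 322 CPM over all libraries. Adipose stroma genes likewise gave no call, with DCN at 36.5 CPM in 1-month replicate 2 and 104 to 256 CPM elsewhere and DPP4 at 52.5 to 133 CPM. Of the muscle markers none was called in either comparison with 1 month, also without 1-month replicate 2. ACTA1, skeletal muscle actin, reached 27.9 CPM in 12-month replicate 2 and 6.91 CPM in 1-month replicate 1 and was at most 3.06 CPM elsewhere, and MB ranged from 0.915 to 7.10 CPM. All 7 thymus markers were called lower in both comparisons with 1 month, with and without 1-month replicate 2, led by RAG1, RAG2, DNTT and PRSS16, each at most 0.814 CPM in any older library. They were tested because of their 1-month levels, so these calls are a description. Of the 8 salivary markers KRT18 and KRT7 were called higher at 24 months (log2 fold changes 2.42 and 2.46) and none at 12 months. Without 1-month replicate 2, 5 were called higher at 24 months and 2 at 12 months, the latter PIGR (3.95) and MUC19 (2.34), named after their values were seen, and KRT7 was then under the fold threshold (1.94).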

How the data were processed

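The authors sequenced 9 libraries, removed ribosomal reads with Bowtie2 2.2.8, aligned to the goat genome with TopHat2 2.1.1 and assembled transcripts with Cufflinks. They deposited RSEM expected counts per transcript, not normalized for depth or length, and most nonzero values are not whole. The genome build is not given in the sources used here, so no coordinates are printed. Names came from RefSeq assembly GCF_001704415.2, which matched 42652 of 42686 RefSeq identifiers. Replicates are separate goats, named by their age and their number in the deposited table.

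Transcripts were summed per gene, rounded, and tested for each pair of ages with edgeR 4.0.16 (filterByExpr, TMM, glmQLFit, glmQLFTest; R 4.3.3) on 6 libraries, with Benjamini-Hochberg adjustment over all genes tested. Folds are older minus younger. The FPKM condition of the study was not applied, as the table has no FPKM. Scripts were tested on simulated data. Group means were compared by exact permutation (scipy 1.17.1). The same-numbered libraries had correlated deviations between -0.234 and 0.42, so replicate numbers did not pair the goats.

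The members and lists were chosen with earlier results of these data known. All 10 members are named. From each of 14 lists (145 genes, of which COX7A1, CD163, MYH7 and CD1B were not found) the text names up to 4 genes called in either comparison with 1 month, by size of fold change, or else the 2 with the highest mean CPM, and the 5 genes most like ADIPOQ, LPL and SCD. Alternatives were other normalizations, DESeq2 1.42.0, edgeR's exact test, no filter, all 9 libraries in one fit, a replicate block, no fold threshold, transcripts tested singly, each library left out and, chosen after seeing the data, RefSeq transcripts only.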

Additional observations from a re-analysis of the deposited data

How the results depend on the processing

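With 3 goats per age and a wide spread within the 1-month group the precision was limited, and LEP was limited by depth. For 9 tested genes in 3 comparisons, 368 of 402 values under the alternatives kept their direction and their side of the threshold, 18 passed the threshold in addition and 16 changed sign. The cause was not tested in any of these. All 16 changes of sign concerned results that were not called.

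The number of the 10 genes called at 24 against 1 month (0) became 1 with library totals only, 4 with DESeq2's Wald test, 2 with edgeR's exact test, 1 with all 9 libraries in one fit, and 0 to 8 with 1 library left out (8, LEP included, without 1-month replicate 2). At 12 against 1 month it ranged from 0 to 3 with 1 library left out (3 without 1-month replicate 2) and was 0 under every other setting, and at 24 against 12 months it was 0 throughout. The number of all genes called at 12 against 1 month (1745) became 901 with the replicate block, 2729 with no fold threshold and 731 with transcripts tested singly, and 0 to 1910 with 1 library left out (0, 64 and 117 without 12-month replicates 1, 2 and 3). At 24 against 1 month (2009) it became 402 with transcripts tested singly and 311 to 2173 with 1 library left out (542 and 311 without 24-month replicates 2 and 3). At 24 against 12 months (0) it became 1 with library totals only, 13 with DESeq2's Wald test, 16 with edgeR's exact test, 2 with no filter on low counts, 7 with the replicate block, and 0 to 172 with 1 library left out (172 without 24-month replicate 1).

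The log2 fold change of PLIN4 at 12 months became -0.41 with library totals only and ranged from -0.45 (without 1-month replicate 2) to 0.94 with 1 library left out, and that of FABP4 ranged from -1.76 to 0.071 (without 1-month replicate 3). For SCD at 24 against 1 month it became -0.63 with library totals only, -0.0029 with RefSeq transcripts only, and -0.30 to 0.46 with 1 library left out (-0.18 without 1-month replicate 2, -0.30 without 24-month replicate 1). Between 24 and 12 months the replicate block gave 0.32 for PLIN1 and 0.30 for CIDEC, and RefSeq transcripts only gave 0.95 for CIDEC. In that comparison the values with 1 library left out ranged from -0.98 to 0.78 for ADIPOQ, from -0.58 to 1.22 for PLIN1, from -1.25 to 0.069 for LPL and from -0.69 to 1.27 for CIDEC. The upper end came in each case without 12-month replicate 2, the library of its group with the most ADIPOQ, and PLIN1 (0.30) and CIDEC (0.35) were also above 0 without 24-month replicate 2. The replicate block changed no call of the 10 genes.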
